A study of Homo sapiens with 8 samples.

Results

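The results below concern the 2 peak lists deposited for a single ETS1 chromatin immunoprecipitation sequencing (ChIP-seq) sample of DU145, a human prostate cancer cell line with epithelial morphology. The first list held 9984 intervals and the second, whose name carries the mark R2, held 9306, together 19290 of the 24078 intervals in the 7 lists of the series. Each interval was placed in a class by whether it shared at least 1 bp with an interval of the other list. The classes were peaks in both lists (8183 intervals of the first list, met by 8224 of the second), peaks of the first list only (1801) and peaks of the second list only (1082).

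In ChIP-seq, protein bound to DNA is fixed, the DNA is sheared and pulled down with an antibody, and peaks are stretches where the recovered DNA piles up. Besides the ETS1 sample, the series has 1 DU145 sample each for ELF1, ELK4, GABPA and JUND, 1 ETS1 sample of PANC1, a pancreatic cancer cell line, and 1 input sample per line, neither of which was analysed here. The labels name no treatment for any group, and puromycin is named in the DU145 medium for selected cells only. Each group was 1 sample of 1 cell line, and the labels do not say whether the R2 list came from another immunoprecipitation, another sequencing run or another round of peak calling. The ETS1 antibody had the same catalogue number in DU145 and PANC1 but a different lot. Because both lists belong to 1 sample, they were treated as 2 descriptions of it and not as replicates, and no test between conditions was possible. All intervals given are 95% intervals for counting error alone.

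ETS1 is a transcription factor of the ETS family, whose members share a winged helix-turn-helix DNA-binding domain that reads a GGAA core. GABPA and ELF1 are family members found at the promoters of many widely expressed genes, where several ETS proteins can occupy the same kind of site. ELK4 is a family member that also binds beside serum response factor, and JUND is a subunit of AP-1, which reads a different element and can stand beside ETS proteins at enhancers. In epithelial cells with active RAS/ERK signalling, ETS proteins next to AP-1 are a known route to genes of migration, and the title of the series places ETS1 there. A second peak list for the same factor therefore bears on which ETS1 sites, family-shared or beside AP-1, stood in both lists.

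No ETS1 interval overlapped another of its own list, and the relation between the lists was close to one to one. Of the first list, 82.0% (exact Clopper-Pearson interval 81.2 to 82.7%) met the second, and of the second list, 88.4% (87.7 to 89.0%) met the first. A single second-list window lay in 8142 of the shared first-list peaks, and 2 windows lay in the other 41, whose median width was 2891 bp against 1265 bp for those with 1 window. No window touched 2 first-list peaks. The overlap was mostly complete: 7355 of 8224 shared windows (89.4%, 88.7 to 90.1%) lay wholly inside the first-list peak, and 133 of the pairs shared less than 50% of the shorter interval. At the border of the rule, the smallest overlap was 9 bp and the smallest gap of a single-list peak was 5 bp. The median distance between the centres of a pair was 114 bp (quartiles 50 and 218.5 bp), and 79.2% of pairs had centres at most 250 bp apart. Only 2 intervals were identical in both lists, so neither list is a copy of the other.

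In bases the lists were less alike than in peaks. The first list covered 12675070 bp and the second 4603401 bp, and the 3965546 bp in common were 31.3% of the first and 86.1% of the second. This follows from the widths: the second list is made of windows of at most 501 bp, whereas first-list peaks reached 13707 bp.

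The peaks found in the first list only were narrow. Their median width was 720 bp (quartiles 533 and 915 bp), against 1267 bp (991 and 1598 bp) for first-list peaks in both lists, a difference of 547 bp. The widths of the 2 classes overlapped broadly, from 289 to 2976 bp for first-list-only peaks and from 271 to 13707 bp for those in both. Widths up to 501 bp, the largest window of the second list, made up 17.8% of first-list-only peaks (321 of 1801, 16.1 to 19.7%) and 1.66% of those in both (136 of 8183, 1.40 to 1.96%). Within the second list, width carried almost no contrast, with medians of 498 bp in both lists and 496 bp in the second only.

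**Figure D1:**
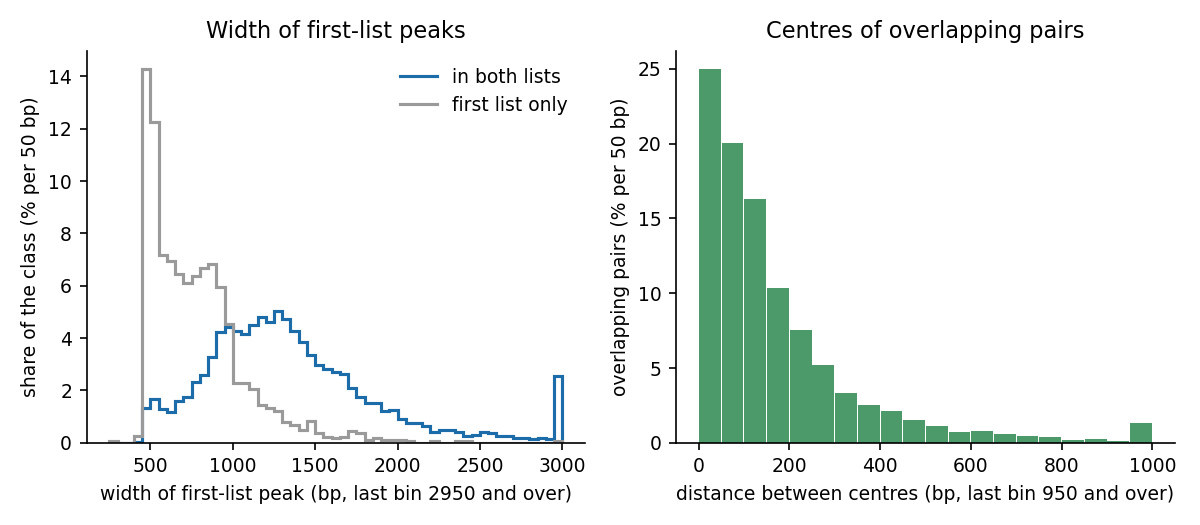
The left panel gives the width of first-list peaks (bp) as the share of each class per 50 bp, with a median of 1267 bp for peaks in both lists and 720 bp for first-list-only peaks, which pile up near 500 bp. The right panel gives the distance in bp between the centres of the 8224 overlapping pairs, with a median of 114 bp.

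A narrow interval meets another list less easily than a wide one, so the width enters the class itself. With the first list cut into 10 equal bins by width, the share that met the second list was 36.5% (33.5 to 39.6%) in the narrowest bin, 90.3% (88.3 to 92.0%) in bin 5 and 99.1% (98.3 to 99.6%) in the widest bin. When every interval in both lists was replaced by 500 bp around its centre, 77.4% of the first and 83.1% of the second list still met the other, and the width difference was 431 bp.

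Position in the file also separated the classes. The labels do not explain the order of lines, and the files carry no score. Cut into 10 equal bins by line, the second list held in its first 3 bins no second-list-only peak, and the earliest such peak stood at line 3152, at chr7:6714818-6715315, at a gap of 125 bp from a first-list peak. In the last bin of that list, 52.6% of peaks (49.3 to 55.8%) met the first list. The first list went from 99.8% (99.3 to 100.0%) in its first bin to 42.6% (39.5 to 45.7%) in its last. The median line was 4124 for first-list peaks in both lists and 8367 for those of the first list only, and it was 4119.5 and 8119.5 for the classes of the second list.

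**Figure D2:**
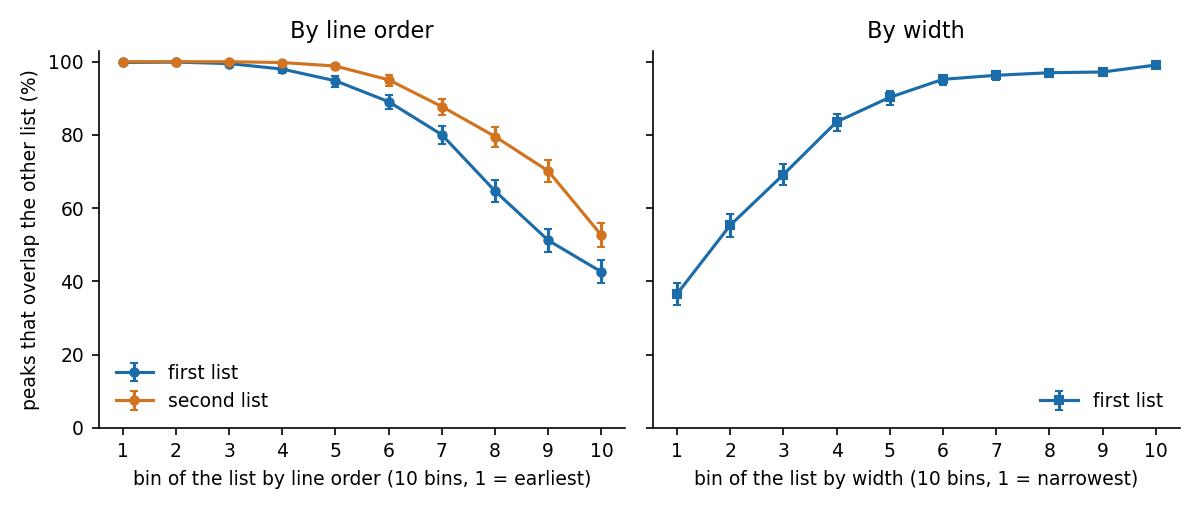
Share of peaks (%) that overlap the other DU145 ETS1 list, in 10 equal bins by line order (left, both lists) and by width (right, first list); bars are exact 95% intervals. Sharing is near 100% in the early bins and 42.6% and 52.6% in the last bin of the first and second list.

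The 2 lists also put the same sites near the same lines. Among the first 100 lines of each list, 83 peaks were common to both (83.0%, 74.2 to 89.8%), and among the first 1000 lines 808 were (80.8%, 78.2 to 83.2%). Nearly all early peaks that missed this cut were further down the other list, since 998 of the first 1000 first-list peaks, and 1000 of the first 1000 second-list peaks, met some peak of the other list. For an overlapping pair, the median difference in relative line number was 8.42 percentage points of the list, and 55.7% of pairs lay within 10 points.

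Width and line order were themselves linked in the first list, where Spearman's rho between line number and width was -0.799 over 9984 peaks of 1 sample. In a cross of both, sharing was 99.0% (98.7 to 99.3%) for the wider peaks of the earlier lines and 95.5% (94.0 to 96.8%) for the narrower peaks of the earlier lines, with lines cut at the midpoint of the list and widths at the median. Among the later lines it was 87.3% (84.9 to 89.4%) for wider and 60.9% (59.4 to 62.4%) for narrower peaks. Within the narrower peaks the earlier and later lines were thus 34.6 points apart, and within the wider peaks 11.7 points.

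Several of the earliest shared peaks also met other ETS factors, and GABPA was at 51.6% (48.4 to 54.7%) of the shared peaks in the first line bin of the first list. The first line of the first list, at chr19:4790855-4794005, and the second, at chr16:30932960-30936115, each met a GABPA and a PANC1 ETS1 peak. Lines 3 and 4, at chr19:42745831-42750824 and at chr1:156736028-156738598, met GABPA alone. Line 5, at chr11:65184646-65198352, met JUND and PANC1 ETS1 but no other ETS factor. The earliest lines with ELF1 and with ELK4 were lines 6 and 10. Line 6, at chr11:62606285-62610185 (all positions are hg19), met GABPA, ELF1, JUND and PANC1 ETS1, and line 10, at chr14:77923077-77925249, met GABPA and ELK4. The 3 widest shared peaks, line 5 itself, chr17:27044032-27056104 and chr11:65264430-65275740, met PANC1 ETS1, and the first and last of them JUND, but none met another ETS factor.

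A few first-list peaks stood early and were still missed by the second list. The earliest, at line 87 on chr21:9825339-9827326, spanned 1988 bp, met ELF1 and ELK4 peaks, and lay 140879 bp from the nearest second-list window. It was followed by line 730, chr19:59086188-59087606 with no other factor, and line 1006, chr19:36235519-36237150 with GABPA, whose gaps to the second list were 1332 and 1849 bp. The next, at line 2352, chr9:34637099-34638440, met no other list. The 3 widest first-list-only peaks lay at chr9:130206595-130209570 (2976 bp, with JUND), at chr16:89629908-89632324 (2417 bp, with JUND) and at chr22:38712273-38714624 (2352 bp, with no other list).

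The earliest second-list-only peaks met no other list. After line 3152 came lines 3670, 3924 and 4032, at chr10:13343975-13344473, chrX:110924273-110924773 and chr11:59328003-59328496. Their gaps to the nearest first-list peak were 1531, 2143609 and 9339 bp. The earliest with GABPA was at line 5066 (chr3:49141891-49142387) and the earliest with ELF1 only at line 8340 (chr6:136571132-136571609).

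Most single-list peaks were far from any peak of the other list, not narrow misses. The median gap was 46570 bp for first-list-only and 28120 bp for second-list-only peaks. Gaps of up to 500 bp were found for 74 first-list-only peaks (4.11%, 3.24 to 5.13%) and 85 second-list-only peaks (7.86%, 6.32 to 9.62%). When gaps of up to 1 kb counted as overlap, a setting chosen after seeing the data, sharing was 83.0% and 89.8%. At gaps of up to 500 bp the neighbour was usually itself a single-list peak, since it was in both lists for 3 of the 74 and for 13 of the 85. A neighbour in both lists needs a further own-list peak close by, which few single-list peaks had, so these counts say little about the peaks.

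Within 1 kb and within 5 kb, single-list peaks more often had an ETS1 neighbour than the shared peaks of their list, and which single-list class led depended on the distance. The median gap to the nearest peak of the own list was yet larger for first-list-only peaks, at 45198 bp against 37207 bp for shared ones. In the second list the medians were 34587 and 39578 bp, with upper quartiles of 111119 and 100461 bp. Within 5 kb in their own list, 20.6% of second-list-only peaks (223 of 1082, 18.2 to 23.1%) had another peak, against 9.95% (9.31 to 10.6%) of second-list peaks in both lists. In the first list the same shares were 13.9% (12.3 to 15.6%) for first-list-only peaks and 11.2% (10.6 to 11.9%) for those in both. Within 1 kb the shares were 4.83% (3.89 to 5.92%) for first-list-only and 3.23% (2.26 to 4.47%) for second-list-only peaks, against 2.00% (1.71 to 2.33%) and 0.571% (0.420 to 0.759%) for the shared peaks of the first and second list. A first-list peak within 5 kb was present for 27.2% of second-list-only peaks (24.5 to 29.9%), and a second-list window within 5 kb for 15.9% of first-list-only peaks (14.3 to 17.7%). In 185 of those 294 and 179 of those 287 cases, the neighbour was a peak in both lists. A wide first-list peak can take in several neighbouring windows as 1 peak, so spacing within the 2 lists is not on 1 scale.

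Sharing was lower on the X chromosome than on any autosome. The 22 autosomes ranged from 74.4 to 86.6% in the first list and from 84.3 to 92.6% in the second. On X, 94 of 152 first-list peaks (61.8%, 53.6 to 69.6%) and 94 of 120 second-list peaks (78.3%, 69.9 to 85.3%) were shared. X therefore held 3.22% of first-list-only peaks and 1.15% of first-list peaks in both lists. Peaks on X also stood late in the files, with 83.6% of its first-list peaks past the midpoint of the lines against 49.5% elsewhere. Among these later lines sharing was 55.1% on X (46.0 to 63.9%) and 65.8% (64.4 to 67.1%) on the other chromosomes, and in the second list it was 72.4% (61.8 to 81.5%) and 77.1% (75.9 to 78.3%), so the intervals stood apart in the first list only. The midpoint cut does not set X at the lines of the other chromosomes. The median first-list peak on X stood at 81.4% of the lines, and sharing in that list fell from 89.1% in line bin 6 to 51.2% in bin 9 and 42.6% in bin 10. Whether X differs at equal lines was not tested.

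**Figure D3:**
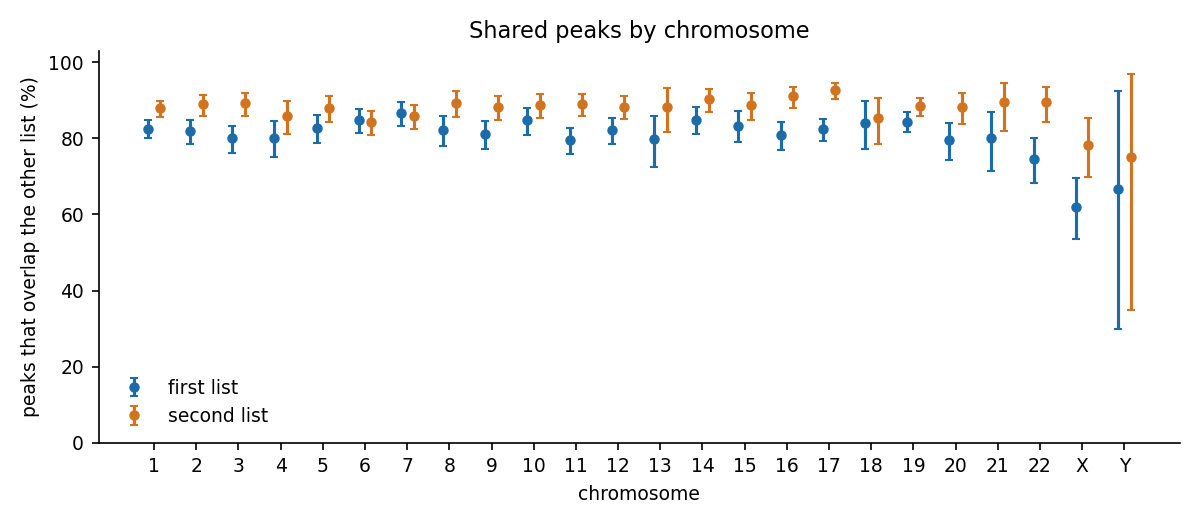
Share of peaks (%) on each chromosome that overlap the other DU145 ETS1 list, with exact 95% intervals. X lies lowest among the chromosomes with over 100 peaks in each list, at 61.8% in the first list and 78.3% in the second; Y holds 9 and 8 peaks.

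The lowest autosome differed between the lists. In the first list it was chromosome 22, with 74.4% (68.3 to 80.0%), although its second-list share was 89.6% (84.4 to 93.5%). Of its first-list peaks, 57.7% stood past the midpoint of the lines. There 58.8% (49.8 to 67.3%) were shared, against 65.8% (64.4 to 67.1%) on all chromosomes but X, values with overlapping intervals. In the second list the lowest was chromosome 6, with 84.3% (80.8 to 87.3%), whose first-list share was 84.8% (81.4 to 87.8%). Chromosome 18 was next in the second list, with 85.3% (78.4 to 90.7%). Chromosome 6 held 7.58% of second-list-only and 5.34% of second-list peaks in both lists. The single megabase with the most second-list-only peaks was also there, from 27 to 28 Mb, with 10 such peaks beside 15 in both lists. The first-list-only peaks were densest, at 10 per megabase, on chromosome 14 from 105 to 106 Mb and on chromosome 20 from 62 to 63 Mb, among others.

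Other ETS factors were found more often at peaks that both lists held than at single-list peaks, although most shared peaks met none of them. GABPA was present at 28.1% of first-list peaks in both lists (2302 of 8183, 27.2 to 29.1%) and at 3.72% of first-list-only peaks (67 of 1801, 2.89 to 4.70%), against 23.7% over the whole first list. In the second list the shares were 27.3% (2247 of 8224, 26.4 to 28.3%) in both and 3.51% (38 of 1082, 2.50 to 4.79%) in the second only, against 24.6% over the whole list. The class in both lists thus had GABPA 7.56 times as often in the first list and 7.78 times as often in the second.

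ELF1 and ELK4, whose lists are far shorter, had the same direction. ELF1 was found at 2.79% (2.44 to 3.17%) of first-list peaks in both lists and at 8 of 1801 first-list-only peaks (0.444%, 0.192 to 0.873%), against 2.36% over the list. In the second list it was at 2.69% (2.35 to 3.06%) and at 2 of 1082 (0.185%, 0.0224 to 0.666%), against 2.40% over the list. ELK4 was at 3.25% (2.88 to 3.66%) and at 11 of 1801 (0.611%, 0.305 to 1.09%) in the first list, against 2.77% over the list, and at 2.93% (2.58 to 3.32%) and 6 of 1082 (0.555%, 0.204 to 1.20%) in the second, against 2.65% over the list. Counting the 3 factors together, 30.4% (29.4 to 31.4%) of first-list peaks in both lists and 4.61% (3.69 to 5.68%) of first-list-only peaks met another ETS factor.

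**Figure D4:**
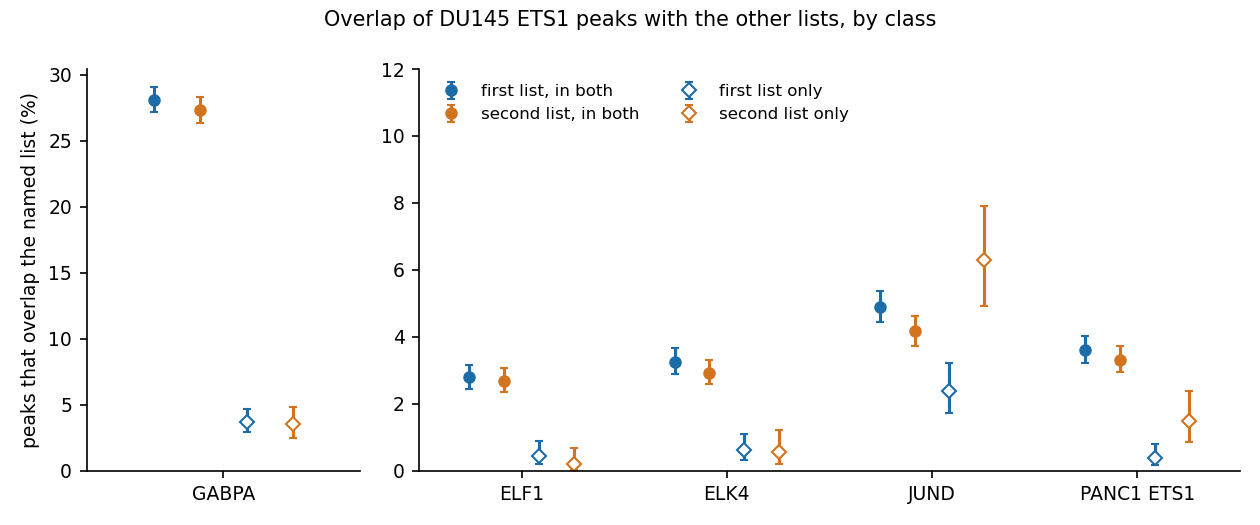
Share of DU145 ETS1 peaks (%) that overlap each other list, by class, with exact 95% intervals; filled circles are peaks in both ETS1 lists, open diamonds peaks of a single list, and GABPA has its own scale. For GABPA, ELF1 and ELK4 both diamonds lie below both circles, whereas for JUND the second-list-only peaks (6.28%) lie highest.

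Both the other ETS factors and the shared peaks favour early lines, so the classes were also set side by side past the midpoint of the lines and at equal line bins. Past the midpoint of the first list, GABPA was at 11.7% of peaks in both lists (10.6 to 12.9%) and at 3.43% of first-list-only peaks (2.62 to 4.40%). Past the midpoint of the second list it was at 10.1% (9.13 to 11.1%) and 3.55% (2.53 to 4.85%). A cut at the midpoint evens out the lines only in part. From bin 6 to bin 10 of the first list, shared peaks fell from 890 to 425 and first-list-only peaks rose from 109 to 573. When the shared class was weighted to the line bins in which the single-list peaks stand, a setting chosen after seeing the data, its GABPA share was 9.82% in the first and 6.62% in the second list, so the difference shrank from 24.4 to 6.10 points and from 23.8 to 3.11 points. For ELF1 the same weighting left differences of 0.234 and 0.425 points, and for ELK4 0.910 and 0.530 points. The weighted ELF1 shares, 0.679% and 0.609%, lay within the counting intervals of the single-list shares. So did the weighted ELK4 share of the second list, 1.08%, but not that of the first, 1.52%. In the last bin of the second list GABPA was at 2.45% (1.27 to 4.25%) of peaks in both lists and at 2.04% (0.937 to 3.84%) of second-list-only peaks, values with overlapping intervals.

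JUND, the AP-1 subunit, followed the direction of the ETS factors in the first list but not in the second. It was present at 6.28% of second-list-only peaks (68 of 1082, 4.91 to 7.90%) and at 4.16% of second-list peaks in both lists (342 of 8224, 3.74 to 4.61%), against 4.41% over the whole second list. In the first list the order was the opposite, with 2.39% of first-list-only peaks (43 of 1801, 1.73 to 3.20%) and 4.89% of those in both lists (400 of 8183, 4.43 to 5.38%), against 4.44% over the list. Peaks in both lists minus single-list peaks gave 2.50 points in the first list (Newcombe interval 1.57 to 3.28) and -2.13 points in the second (-3.78 to -0.752). The first-list difference was smaller with centres at most 250 bp apart (0.989 points) and with 500 bp windows (1.22 points).

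The single-list classes were then compared with each other, with every interval set to 500 bp around its centre for the overlap with other lists but the classes kept as drawn from the deposited widths. On that footing JUND was at 6.10% of second-list-only peaks (66 of 1082, 4.75 to 7.70%) and at 2.05% of first-list-only peaks (37 of 1801, 1.45 to 2.82%), a difference of 4.05 points (2.56 to 5.73). GABPA was at 3.51% and 3.66% of the same peaks, a difference of -0.153 points whose interval, -1.51 to 1.34, held 0. When the classes were also redrawn with 500 bp windows, a setting chosen after seeing the data, they grew to 2252 first-list-only and 1574 second-list-only peaks. The added peaks overlap the other list at their deposited widths. JUND was then at 2.44% (1.85 to 3.17%) and 6.48% (5.31 to 7.81%), a difference of 4.04 points (2.71 to 5.48). GABPA was at 3.86% (3.11 to 4.74%) and 6.16% (5.03 to 7.47%), a difference of 2.30 points (0.904 to 3.78). The JUND difference thus exceeded counting error with either way of drawing the classes, while the GABPA difference did so only in the redrawn classes. On redrawing, second-list-only peaks with GABPA went from 38 to 97, through added peaks that are shared at the deposited widths. The 2 ways have most of their peaks in common, so they are not separate checks.

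In the later lines and at equal line bins, the JUND contrast within the second list kept its direction. Past the midpoint of its lines, JUND was at 6.27% of second-list-only peaks (67 of 1069, 4.89 to 7.89%) and at 3.29% of peaks in both lists (118 of 3584, 2.73 to 3.93%). Weighted to the same line bins, the shared class stood at 3.01%, so second-list-only peaks had JUND 2.09 times as often. The weighted difference of -3.28 points lay within the counting interval of the unweighted one. Bin 9 showed the widest gap among bins 6 to 10, with 22 of 278 (7.91%, 5.03 to 11.7%) against 14 of 653 (2.14%, 1.18 to 3.57%), and in the other 4 of these bins the intervals of the classes overlapped. Past the midpoint of the first list JUND was at 2.27% of first-list-only peaks (1.62 to 3.08%) and at 3.94% of peaks in both lists (3.30 to 4.67%). With only the earlier lines of each list, up to the midpoint, the second-list contrast was turned (0.359 points). In that setting 584 of the 597 peaks counted as second-list-only had a partner among the later lines of the first list.

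**Figure D5:**
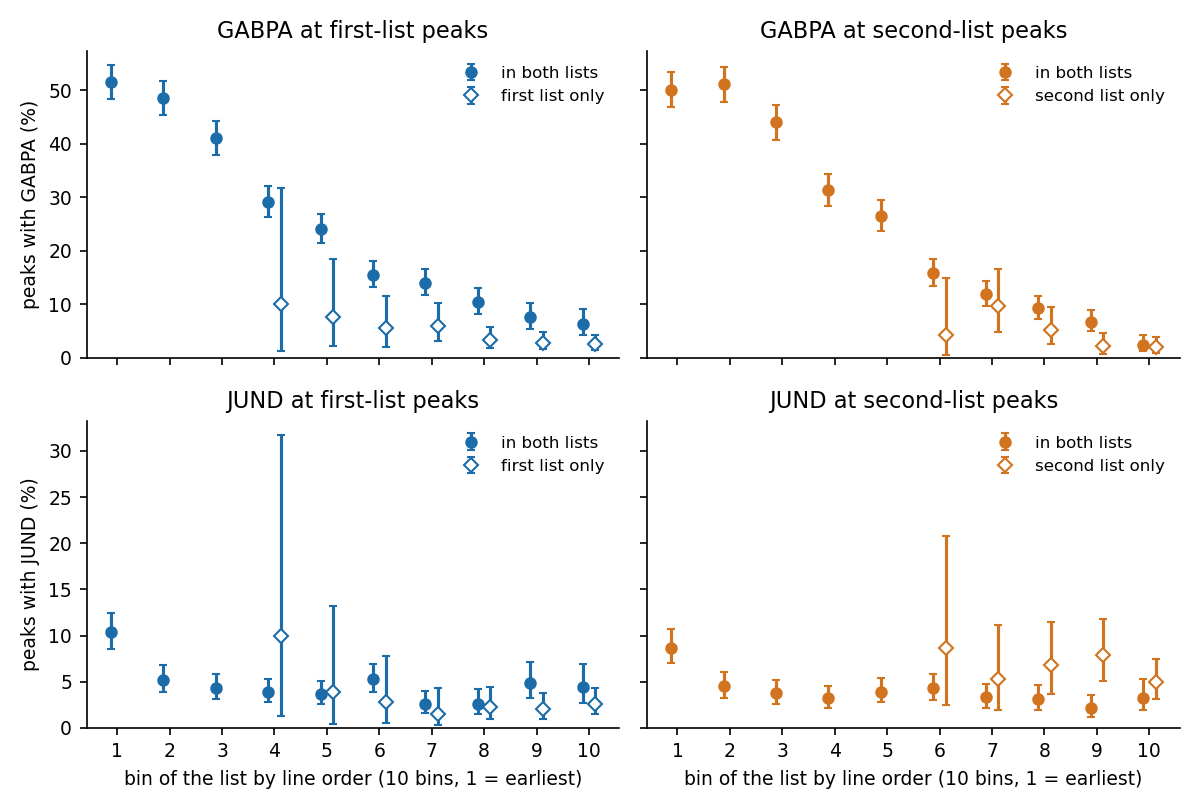
Share of ETS1 peaks (%) with GABPA (top) and JUND (bottom) by line bin of the first list (left) and second list (right), for peaks in both lists (circles) and in a single list (diamonds, shown where a bin holds at least 20); bars are exact 95% intervals. GABPA falls off along the lines in the shared class, and JUND is higher at second-list-only than at shared peaks in each of bins 6 to 10 of the second list.

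No single-list peak met both JUND and another ETS factor. None of the 68 second-list-only peaks with JUND and none of the 43 first-list-only peaks with JUND met GABPA, ELF1 or ELK4, which allows shares of up to 5.28% and 8.22% (exact upper limits). Over all second-list-only and first-list-only peaks, with or without JUND, another ETS factor was at 4.16% (3.05 to 5.53%) and 4.61% (3.69 to 5.68%), which lie within those limits, so a lack of ETS factors beside JUND was not detectable at these counts. Among peaks in both lists, 70 of 342 second-list peaks with JUND (20.5%, 16.3 to 25.1%) and 93 of 400 first-list peaks with JUND (23.3%, 19.2 to 27.7%) did. Past the midpoint of the lines the shared class had 6 of 118 (5.08%, 1.89 to 10.7%) and 9 of 129 (6.98%, 3.24 to 12.8%). The single-list peaks thus could not be told apart from the shared peaks of the later lines by this measure. The earliest second-list-only peak with JUND was at line 4578, at chr1:86049522-86050020, 524 bp from a first-list peak. The earliest first-list-only peak with JUND was at line 3420, at chr19:679354-680993.

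ETS1 peaks of PANC1 were also commoner at shared peaks, but in the second list this depended on how peaks were matched. A PANC1 ETS1 peak was present at 3.61% of first-list peaks in both lists (3.21 to 4.03%) and at 7 of 1801 first-list-only peaks (0.389%, 0.156 to 0.799%), against 3.02% over the list. In the second list the shares were 3.32% (2.94 to 3.73%) in both and 16 of 1082 (1.48%, 0.848 to 2.39%) in the second only, against 3.11% over the list. The second-list difference of 1.84 points changed sign with centres at most 250 bp apart (-0.344), with 500 bp windows (-0.149) and with equal line bins (-0.581). Second-list-only peaks met a PANC1 peak 1.09 points more often than first-list-only peaks (Newcombe interval 0.390 to 2.02), and 2.62 points more often (1.74 to 3.64) with classes redrawn with 500 bp windows. The redrawn second-list-only class had 51 of 1574 peaks with PANC1 ETS1, and the peaks added to it overlap the first list at their deposited widths. The earliest of the second-list-only peaks with PANC1 ETS1 lay at chr6:74224719-74225219, 4240 bp from a first-list peak, and the earliest of the first list only at chr15:63340339-63341189.

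Most single-list peaks met no other list at all. This held for 92.6% of first-list-only peaks (91.3 to 93.8%) and 88.3% of second-list-only peaks (86.2 to 90.1%), against 63.8% (62.7 to 64.8%) and 65.2% (64.2 to 66.2%) of the shared peaks of the first and second list. At least 2 other lists were met by 457 shared first-list peaks (5.58%, 5.10 to 6.10%), by 3 first-list-only peaks (0.167%, 0.0344 to 0.486%) and by 3 second-list-only peaks (0.277%, 0.0572 to 0.808%). One of the latter, at chr7:77427565-77428060, met GABPA and ELK4.

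Seen from the other factors, the ETS1 class that a site fell in varied by factor. Of the 2478 GABPA peaks, 90.7% (89.5 to 91.8%) met both ETS1 lists, 5.13% (4.29 to 6.07%) the first only, 1.53% (1.09 to 2.10%) the second only and 2.66% (2.07 to 3.38%) neither. For ELF1 the first 2 of these shares were 86.3% (81.5 to 90.3%) and 5.86% (3.32 to 9.48%), and for ELK4 71.5% (66.4 to 76.3%) and 10.98% (7.85 to 14.8%). Of the 1308 JUND peaks, 26.1% (23.8 to 28.6%) met both lists, 8.49% (7.03 to 10.1%) the first only, 5.12% (3.99 to 6.46%) the second only and 60.2% (57.5 to 62.9%) neither. Here a site can meet the first list only because a wide first-list peak reaches past its second-list window, so the first-only counts exceed those of first-list-only peaks.

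The place of these sites in their own lists differed as well. GABPA peaks that met both ETS1 lists had a median relative line of 46.7% of the GABPA list, those that met the first only 73.7%, the second only 82.3% and neither 78.8%. JUND peaks at second-list windows alone stood at 40.8% of the JUND list, close to the 41.5% of those that met both lists, whereas those that met the first only stood at 56.2% and those that met neither at 53.9%. Their median widths were 773 bp for the second only, 761 bp for both, 682 bp for the first only and 667.5 bp for neither. By these medians, JUND peaks with a second-list ETS1 window stood earlier and were wider in the JUND list than the rest, whether or not the first ETS1 list held them. No spread was computed, and the class at second-list windows alone held 67 JUND peaks. A wider JUND interval also meets a window more easily, so width enters these classes themselves. For ELF1 and ELK4, which had 2 and 6 peaks at second-list windows alone, no such order can be read.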

How the data were processed

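The 7 deposited files were used, 2 of them for the DU145 ETS1 sample. Each lists peak intervals by chromosome, start and end in hg19 coordinates, per the labels, with no score or count, so depth is unknown. Bowtie2 2.0.6 is named in the submitters' processing notes, with no role. A peak caller, its threshold and any use of input are not given in these sources. Starts were written 1-based.

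Overlap meant at least 1 bp. Shares carry exact Clopper-Pearson 95% intervals and differences Newcombe intervals, both for counting error only; no p-values were computed, since peaks of 1 sample are not replicates. Computation used Python 3.11.15, NumPy 2.4.6, SciPy 1.17.1 and Matplotlib 3.10.9, and the overlap step, tested on simulated data, recovered 3 of 3 lists. Regions named are, per class and leaving out chromosome 8, the 4 earliest, the 3 widest and the earliest with each other list, except that 131 second-list-only peaks tie at the largest width, 501 bp, so no widest is named there. The classes and comparisons were chosen with earlier results of these data known. Alternatives changed the overlap rule, interval width, lines, chromosomes and weighting. Gene names, transcription starts, motifs and sequences at peaks were not analysed here, since the reference tables at hand are of another build.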

Additional observations from a re-analysis of the deposited data

How the results depend on the processing

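Over 18 results, 109 alternative values were computed, of which 66 stayed within the counting interval of the reported value, 36 moved beyond it and 7 changed sign. Peaks are descriptions of 1 sample, depth is unknown, and the cause of a move was not tested except where the setting itself uses fewer peaks. The share of the first list in the second was 80.7% with at least 50% of the shorter interval, 65.3% with centres at most 250 bp apart, 77.4% with 500 bp windows, 81.1% in the earlier lines of both lists, up to the midpoint, 97.0% for its peaks above the median width and 83.0% with gaps up to 1 kb; in the same order the share of the second in the first was 86.9, 70.0, 83.1, 87.2, 52.4 and 89.8%. The 52.4% kept all second-list windows but only the first-list peaks above the median width. Windows in narrower first-list peaks thus counted as unmatched by construction, and the value shows no loss of sharing. In the earlier lines, peaks with a partner past the midpoint of the other list likewise counted as unmatched, as did 584 of the 597 such second-list peaks. Against the whole other list, 4912 earlier first-list peaks were shared and 80 were not. In the second list these counts were 4640 and 13. The width difference in the earlier lines, given next, has the same limit. The median width difference of 547 bp was 239 bp with centres, 431 bp with 500 bp windows, 229 bp in the earlier lines and 133.5 bp above the median width. With centres at most 250 bp apart, the differences between shared and single-list peaks, in percentage points, were 2.02 for ELK4, 0.989 for JUND and 1.49 for PANC1 ETS1 in the first list, and 20.9 for GABPA and -0.344 for PANC1 ETS1 in the second. With 500 bp windows they were 1.22 for JUND and 2.47 for PANC1 ETS1 in the first list, and 22.1 for GABPA and -0.149 for PANC1 ETS1 in the second. In the earlier lines they were 28.1 for GABPA and 4.48 for PANC1 ETS1 in the first list, and 17.7 for GABPA, 1.61 for ELF1, 0.359 for JUND and 2.74 for PANC1 ETS1 in the second. There the single-list side was mostly peaks with a partner in the later lines, so these values do not describe the single-list classes. Weighted to equal line bins the differences were 6.10 (GABPA), 0.234 (ELF1), 0.910 (ELK4) and 1.27 (PANC1 ETS1) in the first list, and 3.11, 0.425, 0.530 and -0.581 in the second. The GABPA, ELF1 and ELK4 differences were above 0 in every alternative run, in both lists. The run on the earlier lines does not bear on this, since it did not compare true single-list peaks. With equal line bins, however, the shared class lay within the counting interval of the single-list share for ELF1 in both lists and for ELK4 in the second. The JUND difference in the second list ran from -3.28 to 0.359 over 8 alternatives and was above 0 only in the earlier lines. Leaving out chromosome 6 or X, like gaps of up to 1 kb and equal line bins a setting chosen after seeing the data, moved none of the 13 results it was run on beyond its interval. With single-list classes redrawn with 500 bp windows, also chosen after seeing the data, the difference between second-list-only and first-list-only peaks went from -0.153 to 2.30 points for GABPA, from -0.259 to 0.0451 for ELF1, from -0.0562 to 0.433 for ELK4 and from 1.09 to 2.62 for PANC1 ETS1, and for JUND it was 4.04. The redrawn classes also hold peaks that overlap the other list at their deposited widths. Alternatives on transcription starts, motifs and gene lists were not run, because no annotation of the build was used.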
